A study of Arabidopsis thaliana with 12 samples.

Results

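Transcripts of 10 genes for oil body proteins were followed in whole Arabidopsis thaliana seedlings. The genes were chosen by their annotation as oil body proteins and selected on their measured differences from wild type in these arrays, and they comprised 5 oleosins, 2 caleosins and 3 steroleosins. The oleosins were OLEO1 (AT4G25140), OLEO2 (AT5G40420), OLEO3 (AT5G51210), OLEO4 (AT3G27660, for which RefSeq also lists the name OLE3) and AT3G01570. The caleosins were ATS1 (AT4G26740, also called CLO1) and ATPXG2 (AT5G55240), and the steroleosins were HSD1 (AT5G50600), HSD5 (AT4G10020) and HSD6 (AT5G50770). They are 10 of the 25383 loci, and their 14 probes are among the 34285 probes, that could be tied to a locus on the array. OLEO1, OLEO2, AT3G01570 and HSD6 had 2 probes each, and the probe with the higher mean stands for the gene.

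Oil bodies are the organelles in which seeds store triacylglycerol, and oleosins are the small hairpin proteins that coat them and keep them from fusing. Caleosins are calcium-binding oil body proteins with peroxygenase activity, and steroleosins are oil body proteins with a hydroxysteroid dehydrogenase domain. In Arabidopsis these transcripts accumulate as the embryo matures, and the stored oil is used up after germination through beta-oxidation and the glyoxylate cycle.

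All seedlings were in the Col-0 background, 10 days old, grown in long days and not treated. The groups were arf2 (allele arf2-8), a gnc gnl double mutant, the libraries labelled arf2 gnc gnl (source name arf2-8 gnc gnl) and wild type (WT), with 3 independent biological samples each. ARF2 belongs to the auxin response factors, and GNC and GNL are related GATA transcription factors. No source used here names the gnc and gnl alleles or says how many seedlings went into a sample. In whole seedlings, fewer cells of a type and less RNA per cell cannot be told apart.

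Levels are given as a percentage of the 75th percentile of the signals on the same array. They are compared between libraries for 1 probe, never between probes. Each array held 43603 probes, of which between 64.6% and 70.2% were well above the local background. Log2 levels of replicates correlated at 0.988 or more across genes, and no member value was saturated or removed as an outlier spot.

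To check the labels, the mutated genes were looked at. ARF2 stood at 2.07%, 0.392% and 3.03% of the WT mean in the arf2 libraries, and GNC at 4.39%, 5.87% and 3.90% in gnc gnl. GNL, listed by RefSeq as CGA1, stood at 6.66%, 2.28% and 2.37% in gnc gnl. The arrays labelled arf2 gnc gnl had GNC at 6.37%, 5.63% and 5.59%, but ARF2 at 56.8%, 54.4% and 70.5% and GNL at 167%, 178% and 179%. The ARF2 and GNL probes thus went against that label, so the group is named here by its label only, and directions given for it depend on that label.

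The arrays lay on 3 slides. The WT arrays shared slide 1 with arf2 replicate 1. On slide 2 were the other arf2 arrays and the labelled replicates 1 and 2, and slide 3 held the labelled replicate 3 with the gnc gnl arrays. No slide held gnc gnl or labelled arrays together with WT arrays. Replicate 1 of gnc gnl was the highest of its group for all 10 members, and the differences between gnc gnl and WT are given below with and without it.

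In arf2 seedlings, transcripts of all 10 members were higher than in WT on every array. The median difference of the members was 4.45 on the log2 scale. Among the members well above background on every WT array, OLEO1 differed most. In gnc gnl seedlings the same genes varied widely between replicates, with replicate 1 high and replicate 3 near WT. The libraries labelled arf2 gnc gnl lay mostly between arf2 and WT. Since the members were chosen with the comparisons with WT in view, those values are a description and carry no p.

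**Figure D1:**
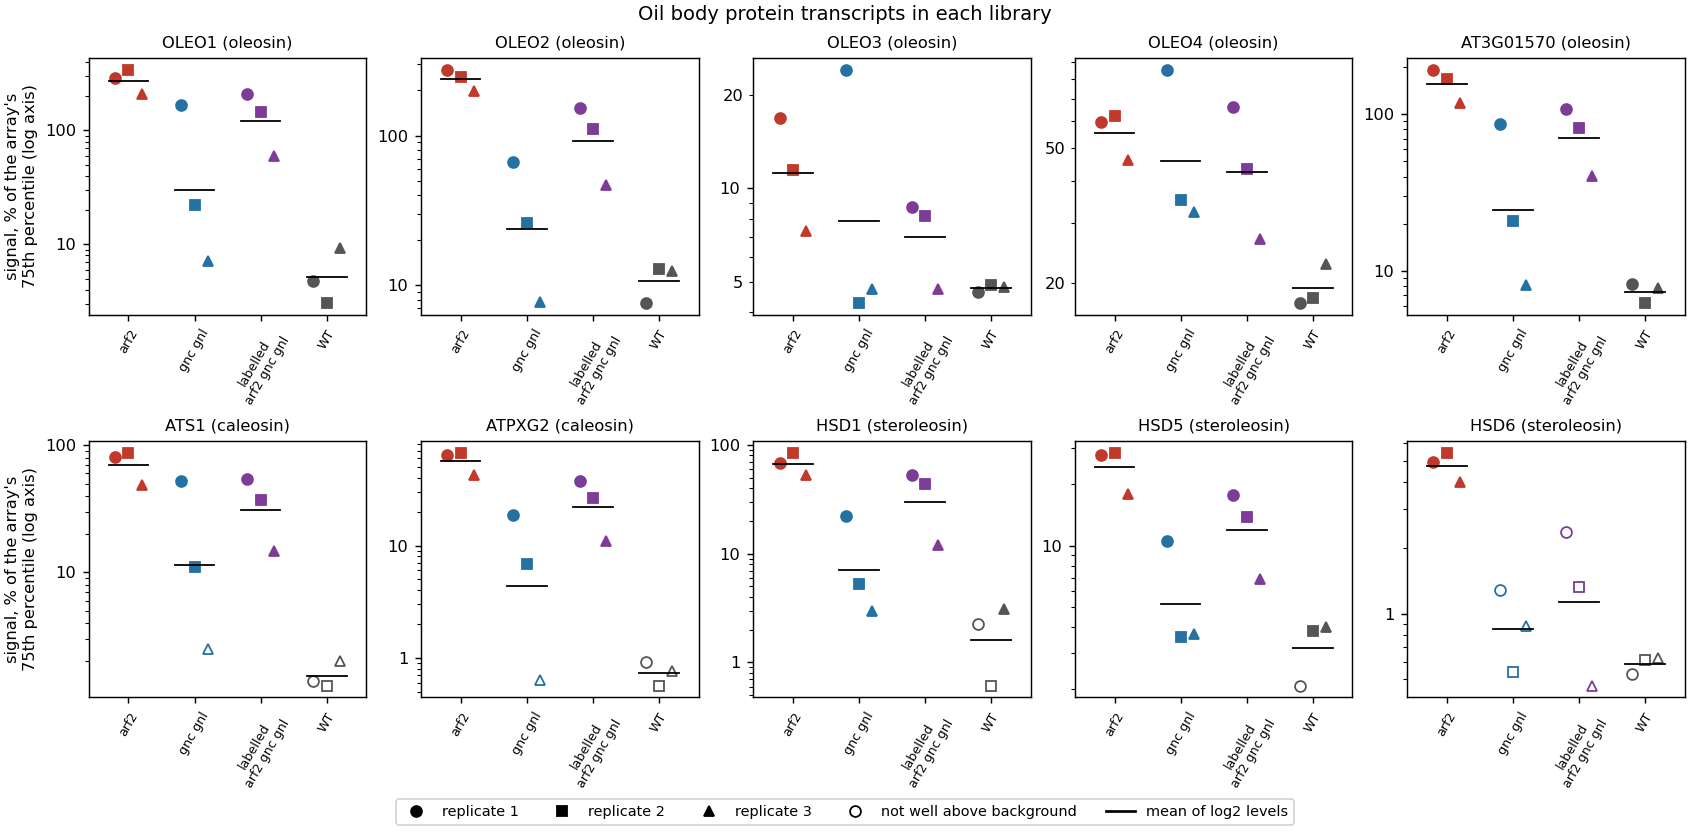
Signal of each member in each of the 12 libraries, as a percentage of the array's 75th percentile on a log axis; colours mark genotypes, shapes mark replicates, open symbols are not well above background and bars are means of the log2 levels. The arf2 points lie above all WT points in every panel, and the first gnc gnl replicate (circle) is the highest of its genotype in every panel.

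Among the oleosins, OLEO1, a major seed oleosin, had 288%, 341% and 208% in the arf2 libraries. It had 168%, 22.2% and 7.22% in gnc gnl and 211%, 145% and 59.8% in the labelled libraries, against 4.78%, 3.07% and 9.21% in WT. The arf2 arrays were thus high throughout, the labelled replicate 1 reached into the arf2 range, and gnc gnl replicate 3 fell inside the WT range. The difference between arf2 and WT was 5.74 ± 0.92 on the log2 scale (SE of the limma fit, n = 3 each), a 53.3-fold difference in signal. A second OLEO1 probe read 219%, 243% and 162% in arf2, 102%, 14.2% and 4.21% in gnc gnl, 162%, 111% and 41.7% in the labelled libraries and 3.50%, 2.82% and 3.34% in WT. On that probe all 9 mutant arrays lay above WT, and both probes correlated at 0.992 over the 12 arrays.

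OLEO2, another seed oleosin, read 275%, 248% and 199% in arf2. Its levels were 66.3%, 26.2% and 7.75% in gnc gnl and 152%, 111% and 46.6% in the labelled libraries, against 7.61%, 12.8% and 12.4% in WT. No other library reached the arf2 range, the labelled libraries lay wholly above WT, and gnc gnl replicate 3 was within the WT range. The log2 difference from WT was 4.49 ± 0.65 for arf2, 1.16 ± 0.65 for gnc gnl and 3.12 ± 0.65 for the labelled libraries. The second OLEO2 probe followed the first with r = 0.996 and gave 4.87 ± 0.65 for arf2 minus WT.

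AT3G01570, an oleosin without a RefSeq gene name, had 192%, 168% and 119% in arf2 libraries. In gnc gnl it had 87.0%, 20.8% and 8.10%, and in the labelled libraries 109%, 82.1% and 40.2%, against 8.21%, 6.27% and 7.79% in WT. The arf2 arrays again did not overlap any other library, and gnc gnl replicate 3 again lay within the WT range. The log2 difference from WT was 4.41 ± 0.67 for arf2, 1.73 ± 0.67 for gnc gnl and 3.27 ± 0.67 for the labelled libraries. Its second probe read 36.2%, 30.0% and 20.7% in arf2, against 2.44%, 2.15% and 2.12% in WT, where 0 of 3 arrays were well above background, and was at least 10.8-fold higher in arf2.

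OLEO3 and OLEO4 departed from this order of libraries. OLEO3, a seed oleosin of low signal here, read 16.8%, 11.5% and 7.29% in arf2, 24.1%, 4.28% and 4.74% in gnc gnl and 8.74%, 8.14% and 4.76% in the labelled libraries, against 4.65%, 4.90% and 4.81% in WT. Its highest value of all 12 was thus gnc gnl replicate 1, while the other gnc gnl libraries were at or below WT. OLEO3 was the member with the smallest arf2 minus WT difference, 1.23 ± 0.56 on the log2 scale.

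OLEO4, a seed oleosin, read 59.9%, 62.0% and 46.2% in arf2, 85.2%, 35.2% and 32.3% in gnc gnl and 66.2%, 43.5% and 26.9% in the labelled libraries, against 17.5%, 18.0% and 22.8% in WT. All 9 mutant libraries lay above all WT libraries, and gnc gnl replicate 1 and the labelled replicate 1 exceeded every arf2 library. The log2 difference from WT was similar in size for arf2 (1.53 ± 0.37), gnc gnl (1.25 ± 0.37) and the labelled libraries (1.15 ± 0.37).

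Both caleosins were not well above background on any WT array, so their differences from WT are given as bounds: the mutant mean over the higher of the WT signal and the lowest signal well above background on that array. ATS1, the seed caleosin CLO1, read 80.7%, 87.5% and 48.5% in arf2, 52.2%, 11.1% and 2.51% in gnc gnl and 53.8%, 37.2% and 14.8% in the labelled libraries, against 1.41%, 1.28% and 2.01% in WT. It was at least 26.9-fold higher than WT in arf2, at least 4.35-fold in gnc gnl and at least 11.9-fold in the labelled libraries. Every mutant array lay above WT, and replicate 1 of both gnc gnl and the labelled libraries lay within the arf2 range. In gnc gnl replicate 3 ATS1 was not well above background.

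ATPXG2, a caleosin that RefSeq lists as peroxygenase 2, read 63.4%, 67.1% and 42.2% in arf2, 18.8%, 6.85% and 0.635% in gnc gnl and 37.6%, 26.3% and 11% in the labelled libraries, against 0.919%, 0.566% and 0.771% in WT. It was at least 21.7-fold higher than WT in arf2 and at least 8.52-fold in the labelled libraries. For gnc gnl the same ratio of means was 1.67, but the gnc gnl arrays overlapped WT, so it is not given as a bound. The arf2 arrays of ATPXG2 lay above all other arrays, and gnc gnl replicate 3 lay inside the WT range and was not well above background.

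Of the steroleosins, HSD1 read 68.0%, 84.8% and 52.7% in arf2, 22.2%, 5.26% and 2.98% in gnc gnl and 52.3%, 43.4% and 12% in the labelled libraries, against 2.25%, 0.611% and 3.08% in WT. WT signal was well above background on 1 of 3 arrays, and the arf2 minus WT difference was 5.38 ± 0.80 on the log2 scale. The arf2 arrays sat just above the labelled replicate 1 and far above WT. A second locus that RefSeq also names HSD1, AT5G50700, had no probe under its own accession here, and transcripts of these near-identical loci cannot be told apart.

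HSD5 read 27.8%, 28.4% and 17.8% in arf2, 10.5%, 3.61% and 3.71% in gnc gnl and 17.6%, 13.9% and 6.92% in the labelled libraries, against 2.08%, 3.84% and 4.02% in WT. The arf2 libraries were highest, the labelled libraries lay between arf2 and WT, and gnc gnl replicates 2 and 3 were within the WT range. WT signal was well above background on 2 of 3 arrays, and the log2 difference from WT was 2.93 ± 0.46 for arf2, 0.71 ± 0.46 for gnc gnl and 1.91 ± 0.46 for the labelled libraries.

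HSD6 was well above background in arf2 libraries alone, with 4.93%, 5.45% and 3.98%, and it entered the fit through that group. It read 1.29%, 0.541% and 0.881% in gnc gnl, 2.36%, 1.33% and 0.467% in the labelled libraries and 0.530%, 0.612% and 0.623% in WT, none of them well above background. The arf2 arrays overlapped no other group, and HSD6 was at least 1.82-fold higher in arf2 than in WT. A second HSD6 probe, too dim to be tested, was well above background on 0 of 12 arrays. It read 2.51%, 2.35% and 1.99% in arf2 and between 0.392% and 0.609% in the other libraries.

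Counted against the fit over all 18976 tested genes, 9 of 10 members were past an adjusted p of 0.05 for arf2 minus WT, all of them higher, where 2.48% of tested genes were called higher. OLEO3 was the exception, and 3.26% of tested genes were called lower. The arrays of arf2 and WT did not overlap for all 10 members, where 11.4% of tested genes had arf2 wholly above WT. For gnc gnl minus WT, OLEO4 and ATS1 were past the threshold (2 of 10, where 12.5% were called higher and 12.1% lower) and were the members whose arrays did not overlap WT, where 21.7% of tested genes had gnc gnl wholly above. For the labelled libraries minus WT, 6 of 10 were past the threshold, where 1.33% were called higher, and 8 did not overlap, where 14.6% had the labelled libraries wholly above. Those 6 were OLEO1, OLEO2, AT3G01570, ATS1, ATPXG2 and HSD1. The median log2 difference of the members was 4.45, 1.49 and 3.19 for arf2, gnc gnl and the labelled libraries minus WT, while the median of all tested genes was -0.0041, 0.0038 and -0.0074. Because the choice of members used these contrasts, nothing is read from these counts, and the 3 comparisons share the WT arrays.

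Without gnc gnl replicate 1 the median difference between gnc gnl and WT was 0.81 in place of 1.49. It was then 1.30 for OLEO1, 0.42 for OLEO2, -0.086 for OLEO3, 0.81 for OLEO4 and 0.82 for AT3G01570. For the members dim on some or all WT arrays it was 1.78 for ATS1, 1.5 for ATPXG2, 1.29 for HSD1, 0.20 for HSD5 and 0.23 for HSD6. The counts for gnc gnl and the labelled libraries also rested on single arrays. Without gnc gnl replicate 1 none of the members passed for gnc gnl minus WT, and without gnc gnl replicate 3 there were 7. Without WT replicate 1, 2 or 3 the count for the labelled libraries minus WT was 0, 0 and 1, and without the labelled replicate 1 or 2 it was 0. Leaving out those WT arrays gave 170, 126 and 215 calls among the 18976 tested genes, against 432 in the reported fit. For arf2 minus WT the count stayed between 8 and 10 whichever array was left out, but with normexp background correction in place of the scanner's processed signal it was 1 (OLEO2). Normexp called 113 of 18976 tested genes for arf2 minus WT, against 1090 in the reported fit. The differences were smaller with normexp, with a median of 3.06. They were 4.32 for OLEO1, 3.19 for ATPXG2, 3.09 for ATS1, 3.03 for HSD1 and 0.72 for HSD6. The bounds given above for ATPXG2, ATS1 and HSD6 thus hold for the processed signal and not under normexp. With slide as a fixed block 5 members passed for arf2 minus WT, where 451 of 18976 tested genes were called. On slide 1, where a single arf2 array stood against the WT arrays, the differences of the members well above background on all WT arrays lay between 1.64 for OLEO4 and 5.81 for OLEO1, with no test drawn from 1 array. For gnc gnl and the labelled libraries minus WT none passed with the slide block, where 29 and 6 of 18976 tested genes were called. No slide gives a value of its own for these comparisons.

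**Figure D2:**
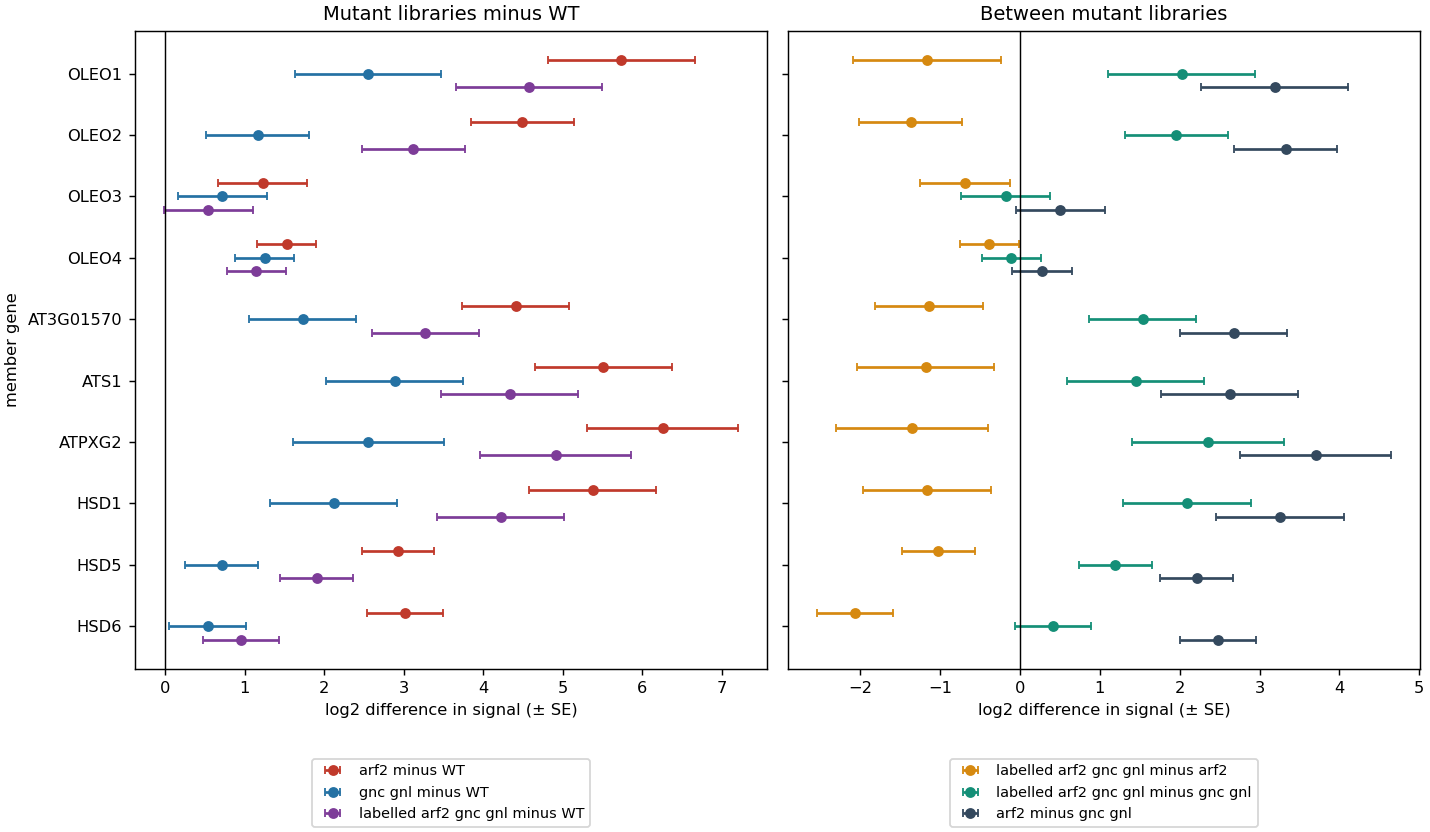
Log2 difference in signal of each member from the limma fit with its SE, for mutants minus WT (left) and between mutants (right). ATS1, ATPXG2 and HSD6 were not well above background in WT, so their points against WT are fitted values with no rank; OLEO1 lies at 5.74 for arf2 minus WT, and OLEO3 and OLEO4 lie near 0 in all comparisons between mutants.

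The mutants were next compared with each other. These contrasts use the same mutant arrays on which the choice of members rests, so their p-values are not independent of that choice. With 3 samples a group, the p-values rest on 1 spread per gene, pooled over the replicates of all genotypes and moderated over all tested genes. They do not measure the spread of the compared groups alone. For OLEO1 the SE was 0.92 in every comparison, while its SD among replicates was 0.36 in arf2 and 2.30 in gnc gnl. With only the compared groups fitted, 5 members passed for arf2 minus gnc gnl and 0 for labelled minus arf2. Of the 18976 tested genes 4650 and 1074 were then called, against 6913 and 1666 in the reported fit. On the mean of log2 levels, 8 members ran in the order arf2, labelled libraries, gnc gnl and WT from high to low. HSD6 was among the 8, but it was well above background in arf2 alone, so nothing is read from its order among the other groups. Its second probe ran in the order arf2, WT, gnc gnl and labelled libraries. OLEO3 and OLEO4 ran in the order arf2, gnc gnl, labelled libraries and WT.

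Between arf2 and gnc gnl, 8 of 10 members were higher in arf2 by limma (adjusted p under 0.05), where 17.1% of tested genes were called higher and 19.3% lower in arf2, and the median difference of the members was 2.65. ATPXG2 differed by 3.70 ± 0.95 (adjusted p = 0.0117), OLEO2 by 3.33 ± 0.65 (adjusted p = 0.00292), HSD1 by 3.26 ± 0.80 (adjusted p = 0.0094) and OLEO1 by 3.19 ± 0.92 (adjusted p = 0.0201). AT3G01570, ATS1 and HSD5 also passed, with differences of 2.68, 2.63 and 2.22. ATS1 and ATPXG2 were well above background on 2 of 3 gnc gnl arrays. HSD6, counted among the 8, was well above background on no gnc gnl array and was at least 2.11-fold higher in arf2 (adjusted p = 0.00279), but since it entered the fit through its arf2 signal this difference is a description. The differences for OLEO3 (0.51 ± 0.56, adjusted p = 0.503) and OLEO4 (0.27 ± 0.37, adjusted p = 0.589) did not pass. The arf2 arrays lay wholly above the gnc gnl arrays for 7 members, where 21.4% of tested genes did so. ATS1 passed although gnc gnl replicate 1 lay within the arf2 range.

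No slide held both arf2 and gnc gnl arrays. With slide as a fixed block, which links them through the labelled libraries alone, none of the 10 members passed for arf2 minus gnc gnl, and the differences ran between -0.77 for OLEO4 and 2.10 for ATPXG2. That block called 416 of 18976 tested genes for this comparison, against 6913 in the reported fit. With slide as a random block, at a consensus correlation of 0.026, the count of members was again 8.

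Between the libraries labelled arf2 gnc gnl and arf2, all 10 members had a negative difference, with a median of -1.16, and 1 of 10 passed, where 4.51% of tested genes were called lower. That member was HSD6, at 1.38% ± 0.948 in the labelled libraries and 4.79% ± 0.743 in arf2 (SD, n = 3 each). It was at least 2.21-fold lower in the labelled libraries (limma adjusted p = 0.0279), but it had entered the fit through its arf2 signal. The labelled arrays lay wholly below the arf2 arrays for 6 members, where 16.5% of tested genes did so: OLEO2, AT3G01570, ATPXG2, HSD1, HSD5 and HSD6. The fit gave OLEO2 a difference of -1.37 ± 0.65 (limma adjusted p = 0.198) and OLEO1 one of -1.16 ± 0.92 (limma adjusted p = 0.451). Within slide 2, which held 2 arrays of each of these groups, the differences of the members other than HSD6 lay between -0.77 for OLEO2 and 0.0027 for OLEO4, and none passed.

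Between the libraries labelled arf2 gnc gnl and gnc gnl, 0 of 10 members passed in limma, where 11.6% of tested genes were called in either direction. An unadjusted limma p under 0.05 was found for 5 of 10 members, and for 5664 of the 18976 tested genes. The arrays of these groups overlapped for every member, where 14.8% of tested genes had the labelled libraries wholly above and 16.7% wholly below. The largest differences were those of ATPXG2 (2.35 ± 0.95, adjusted p = 0.127), HSD1 (2.09 ± 0.80, adjusted p = 0.11), OLEO1 (2.03 ± 0.92, adjusted p = 0.168) and OLEO2 (1.96 ± 0.65, adjusted p = 0.0737). Without gnc gnl replicate 1, 7 members passed and were higher in the labelled libraries, among them OLEO1 (3.27) and OLEO2 (2.70). That library was singled out because it was the highest gnc gnl library for the members. The count without it is thus a description and carries no p. Within slide 3, where the labelled replicate 3 alone stood against the gnc gnl arrays, the differences of the members other than HSD6 ran between -0.77 for OLEO4 and 1.34 for ATPXG2, with no test drawn from 1 array.

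The members shared part of their order of replicates in each mutant group, but not in WT. The SD of log2 levels among replicates had a median over the members of 0.36 in arf2, 1.52 in gnc gnl, 0.90 in the labelled libraries and 0.35 in WT. Over all tested genes it was 0.112 in arf2, 0.137 in gnc gnl, 0.102 in the labelled libraries and 0.0927 in WT. For all 10 members the highest gnc gnl library was replicate 1, the highest labelled library was replicate 1, the lowest labelled library was replicate 3 and the lowest arf2 library was replicate 3. HSD6, however, was not well above background on any gnc gnl or labelled array. On its second, dimmer probe gnc gnl replicate 1 was the lowest (0.495%) and the labelled replicate 2 the highest (0.552%) of their groups. The highest arf2 library was replicate 1 for 3 members and replicate 2 for 7. The lowest gnc gnl library was replicate 2 for 3 members and replicate 3 for 7. In WT replicates 1, 2 and 3 were highest for 2, 2 and 6 members, and replicates 1 and 2 were lowest for 5 each.

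The mean log2 level of the 10 members was -0.71, -0.70 and -1.30 in arf2, -1.74, -3.60 and -4.64 in gnc gnl and -1.35, -1.81 and -3.00 in the labelled libraries, against -5.02, -5.20 and -4.63 in WT. Replicate 3 of gnc gnl thus read as low as WT replicate 3. The number of members well above background was 10 on each arf2 array, 9, 9 and 7 in gnc gnl, 9 on each labelled array and 5, 6 and 7 in WT.

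Replicate 1 of gnc gnl did not match arf2 in proportion. Set against the arf2 mean of the same probe, it reached 203% for OLEO3, 152% for OLEO4, 72.3% for ATS1 and 60.4% for OLEO1. For OLEO2 it reached 27.5%. HSD6 was not well above background there. OLEO3 and OLEO4 also had the highest WT levels on this scale of all 10 members, at 39.2% to 41.3% for OLEO3 and 31.1% to 40.6% for OLEO4. The labelled replicate 3, on the same slide, stood at 40.1% for OLEO3, within the WT range, and at 48.0% for OLEO4, above it.

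Across the 12 arrays the 45 pairs of members correlated between 0.68 and 0.99, with a median of 0.91. OLEO1 and ATS1 had r = 0.991, OLEO1 and AT3G01570 r = 0.991, and OLEO3 and HSD6 r = 0.685, the lowest. These points share arrays, genotypes and scaling and are given as a description. The 8 other genes whose log2 level followed the mean of the members most closely over the 12 arrays were CRA1 (r = 0.988), AT1G65090 (0.987), AT4G36700 (0.984), AT1G54860 (0.983), BETA-TIP (0.983), SCPL19 (0.973), AT2G28490 (0.971) and AT1G29680 (0.968). CRA1 encodes a 12S seed storage globulin, and BETA-TIP is a tonoplast intrinsic protein.

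**Figure D3:**
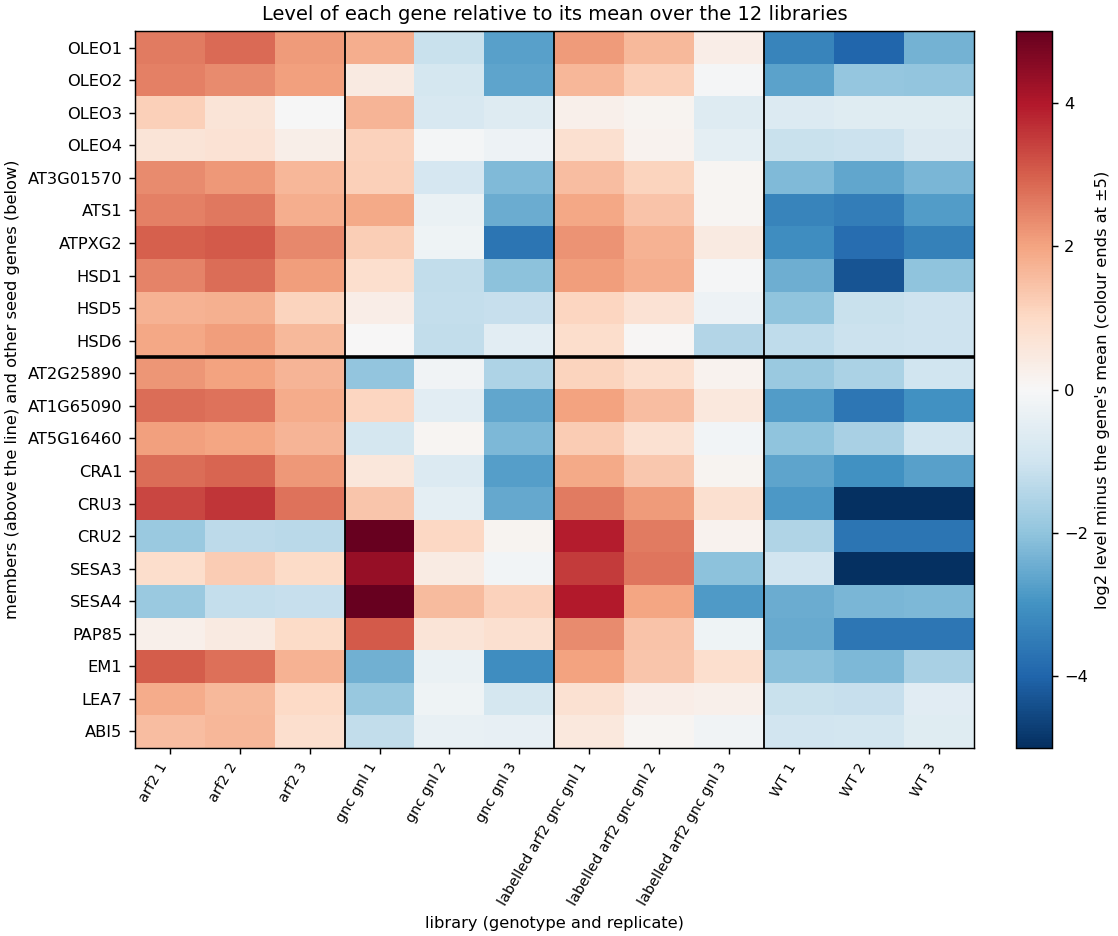
Log2 level of each gene in each library minus its mean over the 12 libraries, for the members (above the line) and for 12 other seed-related genes chosen after their values were seen (below the line). The first gnc gnl replicate is above the gene's mean for the members except HSD6, which lies near its mean there. That replicate is low for AT2G25890, EM1, LEA7 and ABI5.

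Of the markers of maturing seeds, the storage protein sum, which its brightest probes weigh most, was ordered like the members. Gene by gene that list differed from the members. Of 9 tested genes, 5 were called higher than WT in arf2 and 7 in gnc gnl, where 2.48% and 12.5% of all tested genes were. For arf2 minus gnc gnl 3 were higher and 2 lower, where 17.1% and 19.3% were. The median of labelled minus gnc gnl was -0.16. The late embryogenesis sum was higher than WT in arf2 and the labelled libraries but overlapped WT in gnc gnl. The summed level of 9 seed storage protein genes was 4792% to 8219% in arf2, 205% to 2959% in gnc gnl and 1242% to 4684% in the labelled libraries, against 78.9% to 156% in WT. Of these 9 genes, 7 were well above background in each arf2 library, 8 to 9 in gnc gnl, 7 to 9 in the labelled libraries and 2 to 4 in WT. Replicate 1 was the highest gnc gnl library for this sum and replicate 3 the lowest. CRU2 and SESA4 of this list were not well above background on any arf2 array. The 5 late embryogenesis genes summed to 3967% to 6783% in arf2, 805% to 1864% in gnc gnl, 2473% to 3376% in the labelled libraries and 1304% to 1841% in WT, with 4 or all 5 well above background in gnc gnl and all 5 in the other genotypes. In contrast to the members, gnc gnl replicate 1 had the lowest late embryogenesis sum of all 12 libraries (805%). The part of either list in the members' differences was not tested.

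Markers of other tissues were read in the same way. All 5 leaf markers and 4 of 5 root markers were well above background in every library, as were 2 of 5 seed coat and endosperm markers. Leaf markers summed to 72191% to 79281% in arf2, 56406% to 70464% in gnc gnl, 54697% to 64545% in the labelled libraries and 59394% to 70738% in WT. Root markers summed to 235% to 279% in arf2, 358% to 411% in gnc gnl, 261% to 312% in the labelled libraries and 260% to 303% in WT. Seed coat and endosperm markers summed to 272% to 298% in arf2, 338% to 377% in gnc gnl, 298% to 359% in the labelled libraries and 251% to 261% in WT. Their part in the members' differences was not tested.

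Other genes of the same families and of oil metabolism were read from lists compiled by function. Of 11 further oleosin genes, 10 were on the array and 3 passed the filter on dim probes. AT2G25890, listed as an oleosin, had 215%, 187% and 151% in arf2, 11.8%, 41.0% and 15.6% in gnc gnl and 101%, 81.2% and 51.9% in the labelled libraries, against 12.6%, 15.5% and 23.2% in WT. It thus had high arf2 levels like the members, but its gnc gnl replicate 1 was below WT. The difference between arf2 and WT was 3.46 ± 0.42 (limma adjusted p = 0.000714). AT5G61610, listed among the flower and pollen oleosins and not well above background in WT, was at least 1.78-fold higher in arf2 and at least 1.19-fold higher in gnc gnl. AT5G56100 fell by 0.66 on the log2 scale in gnc gnl compared with WT.

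Of 6 further caleosins, 2 were tested. CLO4, known as a negative regulator of abscisic acid responses, was lower in arf2 than in WT by a log2 difference of -0.35 ± 0.089 (limma adjusted p = 0.0435), while RD20, a dehydration-induced caleosin, had a difference of 0.90 that did not pass. Neither passed in gnc gnl. The single tested steroleosin-like gene, HSD3, did not pass in arf2 or gnc gnl.

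Among 9 tested genes listed as other lipid droplet proteins, 4 rose in arf2, where 2.48% of all tested genes did, and 2 rose in gnc gnl, where 12.5% did, and none fell. The median log2 difference over the 9 was 0.33 in arf2 and 0.27 in gnc gnl. AT1G65090 had 57.2%, 54.0% and 29.5% in arf2 and 17.4%, 5.62% and 1.35% in gnc gnl, against 1.18%, 0.669% and 0.997% in WT, where it was not well above background. It was at least 17.3-fold higher in arf2 and at least 1.96-fold higher in gnc gnl. AT5G16460 was at least 5.28-fold higher in arf2, and AT2G47780 and AT3G14360 were higher there by 1.08 and 0.72 on the log2 scale. AT3G14360 was also higher in gnc gnl, by 0.45.

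Oil synthesis genes mostly did not pass. In arf2, 2 of 9 were higher than in WT and none lower, where 2.48% of all tested genes were higher and 3.26% lower. The 2 were TAG1, the diacylglycerol acyltransferase DGAT1, by 0.70 ± 0.13 (limma adjusted p = 0.0091), and AT3G44830 by at least 4.74-fold. In gnc gnl none of the 9 passed by limma, where 12.5% of all tested genes were higher and 12.1% lower. The median over the 9 was -0.022 in arf2 and 0.0013 in gnc gnl.

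Genes of oil breakdown were higher where they passed the test. In arf2, 3 of 16 tested genes were higher than in WT and none lower, where 2.48% of all tested genes were higher and 3.26% lower. In gnc gnl compared with WT, 8 of 16 were higher and none lower, where 12.5% of all tested genes were higher and 12.1% lower. With slide as a fixed block none of the genes named from these lists kept its call for gnc gnl minus WT. Their median log2 difference was 0.065 in arf2 and 0.33 in gnc gnl. MLS, the malate synthase of the glyoxylate cycle, had 285%, 234% and 171% in arf2 and 53.8%, 88.1% and 73.2% in gnc gnl, against 36.2%, 31.1% and 34.7% in WT. Both mutants lay above WT on every array, with differences of 2.73 ± 0.25 for arf2 and 1.05 ± 0.25 for gnc gnl. ICL, the isocitrate lyase of the same cycle, was higher by 2.11 ± 0.29 in arf2 and 1.25 ± 0.29 in gnc gnl. PCK1, which feeds the product into sugar synthesis, was higher by 0.50 in arf2. In gnc gnl, the beta-oxidation genes MFP2 and ACX1 were higher by 0.41 and 0.38. Between arf2 and gnc gnl 6 of 16 were lower and 2 higher in arf2, where 19.3% of all tested genes were lower and 17.1% higher.

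**Figure D4:**
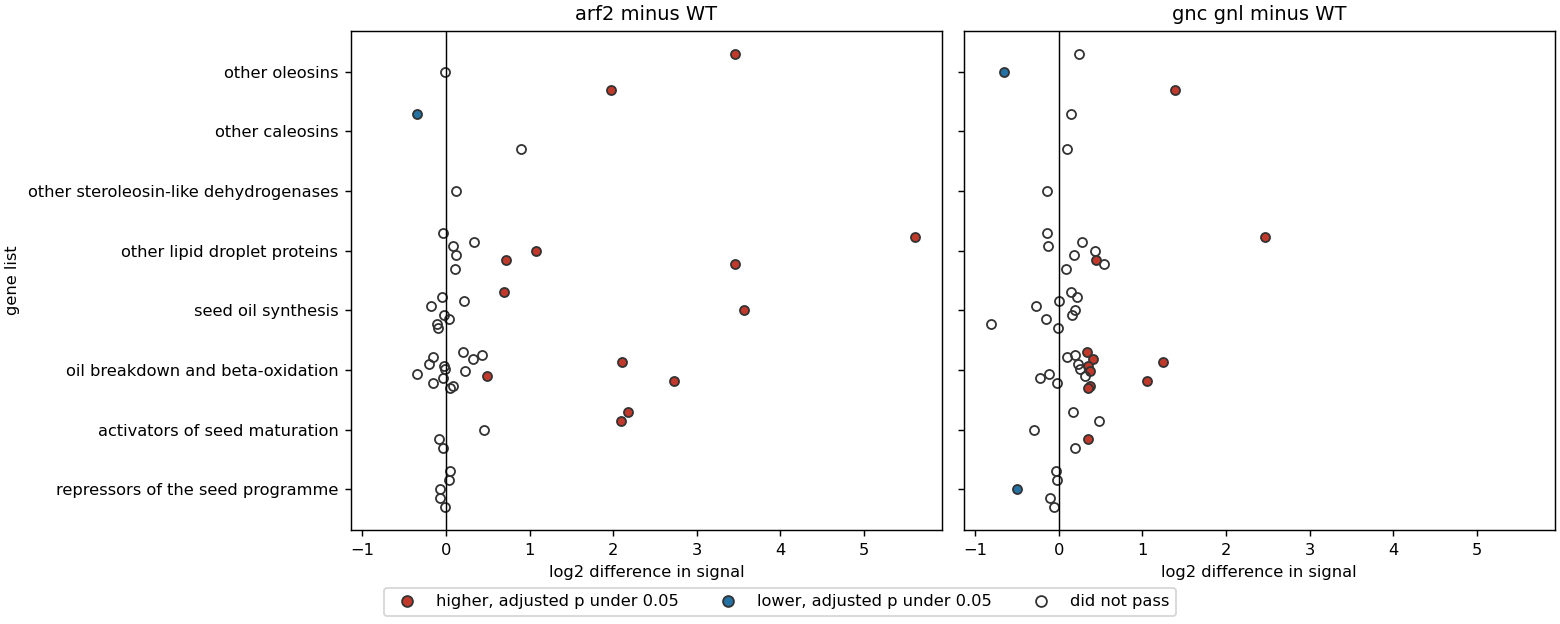
Log2 difference in signal of each tested gene of the other lists (rows) for arf2 minus WT (left) and gnc gnl minus WT (right); filled points passed an adjusted p of 0.05. AT1G65090, AT5G16460, AT3G44830, AT5G61610, ABI3 and FUS3 were not well above background in WT, so their points are fitted values with no rank; in gnc gnl the filled points of the oil breakdown row lie between 0.34 and 1.25.

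Of the regulators of the seed programme, 2 of 5 tested activators were higher in arf2 than in WT and none lower. Over all tested genes 2.48% were called higher in arf2 and 3.26% lower. ABI5, a bZIP factor of abscisic acid responses, had 44.7%, 48.6% and 28.0% in arf2 and 6.68%, 12.1% and 11.6% in gnc gnl, against 7.93%, 8.09% and 10.2% in WT. The arf2 arrays did not overlap the others, and the difference was 2.18 ± 0.27 (limma adjusted p = 0.000872). ABI3, a B3 factor of seed maturation that was not well above background in WT, was at least 2.80-fold higher in arf2. In gnc gnl 1 of 5 passed, BZIP25, higher by 0.35, where 12.5% of all tested genes were higher and 12.1% lower. Of 5 tested repressors none passed in arf2 by limma, and in gnc gnl HSI2, a B3 repressor of seed genes, fell by 0.50.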

How the data were processed

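Cy3-labelled RNA of 12 seedling samples was measured on one-colour Agilent arrays. The deposited files hold the scanner's spot intensity, background-corrected as the processed signal by Agilent Feature Extraction 10.7.3.1, per the submitters' processing notes. The deposited series table held the same processed intensity values.

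Control and outlier spots were left out, and log2 intensity minus each array's 75th percentile was computed from the deposited values. Probes were tied to loci through unversioned RefSeq accessions (34285 of 43603 matched, assembly TAIR10.1), and a gene took its probe with the highest mean. A gene was tested where 1 or more genotypes had all 3 arrays well above background (18976 genes). One limma 3.58.1 fit (R 4.3.3) over the 12 arrays, with 8 residual degrees of freedom, gave all 6 comparisons, with Benjamini-Hochberg adjustment over all tested genes and a threshold of 0.05. Adjusted p-values in the text come from this limma fit, which was checked on simulated data.

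The members and lists were chosen with earlier results of these data known. Named genes were all members, the genes of the genotypes, up to 4 genes past the threshold with the largest difference per list and comparison, and the 8 genes most correlated with the members. Replicate numbers were not treated as pairs. Same-numbered deviations correlated between -0.367 and 0.370 over 18 pairs, 7 of them over 0.1, which does not settle whether samples were paired. Alternatives covered normalization, background correction, the dim-probe filter, choice of probe, outlier spots, slide, replicate block, array weights and leaving out arrays. The number of arrays limits the precision. Genome positions and sequences were not used here.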

Additional observations from a re-analysis of the deposited data

How the results depend on the processing

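Counts of members past the threshold are given in the order arf2 minus WT, gnc gnl minus WT, labelled minus WT, labelled minus arf2, labelled minus gnc gnl and arf2 minus gnc gnl, where the reported counts were 9, 2, 6, 1, 0 and 8. Quantile and median scaling, each probe as a feature, outlier spots kept and slide as a random block gave the same counts. Normexp, run on the median spot signal, gave 1, 0, 0, 0, 0 and 5, no filter 8, 0, 0, 1, 0 and 8, and the filter for all 12 arrays 4, 1, 3, 0, 0 and 3, over the 5 members that passed it. Slide as a fixed block gave 5, 0, 0, 0, 0 and 0. Arrays of a shared slide alone gave 0 for labelled minus arf2. For arf2 minus WT and labelled minus gnc gnl such a fit has 1 array in an arm, so no count is given. The median fitted differences of the members were then 4.70 and 0.56. The replicate block gave 9, 4, 6, 1, 0 and 8, so it moved gnc gnl minus WT to 4, and whether the numbers pair the samples is not known. Array weights gave 10, 2, 9, 2, 1 and 8, the groups compared alone 9, 0, 7, 0, 0 and 5, and the mean of all probes 9, 2, 5, 1, 0 and 8. The calls over all tested genes moved as well. For arf2 minus WT, 1090 of 18976 genes were called in the reported fit. Normexp called 113, slide as a fixed block 451 and array weights 5039. For labelled minus WT the reported fit called 432, normexp 15, the slide block 6 and array weights 1837. Without the labelled libraries the counts were 9, 2 and 8. Leaving out each array in turn gave 8 to 10, 0 to 7, 0 to 7, 0 to 1, 0 to 7 and 6 to 9. The 0 for labelled minus arf2 came without arf2 replicate 1 or 2 or the labelled replicate 2 or 3, and gnc gnl minus WT was 0 without any 1 WT array and 1 without gnc gnl replicate 2. The causes were not tested.

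Over single members, 1368 alternative values kept direction and side of the threshold, 118 lost it, 26 gained it and 18 turned sign. With normexp, gnc gnl minus WT became -0.14 for OLEO3, -0.22 for HSD5 and -0.69 for HSD6, and labelled minus WT became -0.30 for OLEO3 and -0.55 for HSD6. With slide as a block or within a slide, labelled minus arf2 was 0.0027 for OLEO4 and labelled minus gnc gnl -0.86 for HSD6, and with the block arf2 minus gnc gnl was -0.61 for OLEO3 and -0.77 for OLEO4. Labelled minus gnc gnl was 0.025 for OLEO4 with array weights. With each array left out in turn, gnc gnl minus WT ran between -0.086 (without gnc gnl replicate 1) and 1.16 for OLEO3. Labelled minus gnc gnl ran between -0.62 and 0.63 for OLEO3 and between -0.43 and 0.34 for OLEO4, above 0 without gnc gnl replicate 1 and without the labelled replicate 3 (0.097 for OLEO3 and 0.22 for OLEO4). It ran between -0.11 (without the labelled replicate 1) and 1.06 for HSD6. None of these reversed values passed the threshold.

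For the genes named from other lists, the same alternatives were run after the data were seen. With slide as a fixed block all 10 named calls for gnc gnl minus WT and 5 of 14 for arf2 minus WT were lost, and with normexp 11 of 14 for arf2 minus WT and 4 of 10 for gnc gnl minus WT. AT5G61610 alone turned sign, to -0.31 in gnc gnl minus WT with normexp. PCK1 lost its call in 17 of 27 alternatives, CLO4 in 14 of 27, AT2G47780 in 13 of 27 and ACX1 in 19 of 26. Signal over background limits the WT values of ATS1, ATPXG2 and HSD6.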

Other observations

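Among the seed storage protein genes, CRU2 and SESA4 did not follow the members. CRU2, which encodes a 12S cruciferin, was not well above background on any arf2 array, where it read 1.97%, 2.94% and 2.80%. It read 317%, 14.7% and 7.82% in gnc gnl and 109%, 43.9% and 8.10% in the labelled libraries, against 2.56%, 0.567% and 0.576% in WT. SESA4, a 2S albumin, likewise read 0.842%, 1.33% and 1.36% in arf2, not well above background on any array, but 125%, 9.12% and 6.77% in gnc gnl, against 0.535%, 0.614% and 0.628% in WT. CRU2 was at least 9.96-fold lower in arf2 than in gnc gnl (limma adjusted p = 0.0422) and SESA4 at least 5.93-fold lower (limma adjusted p = 0.0486). With no arf2 array well above background, both genes entered the fit through other genotypes, so these differences are a description. Without gnc gnl replicate 1 the fitted log2 difference was -2.08 for CRU2 (limma adjusted p = 0.121) and -2.77 for SESA4 (limma adjusted p = 0.163), so neither call held without that library. They were lost in part of the alternatives (11 of 25 for CRU2 and 13 of 25 for SESA4). In the same arf2 libraries CRU3, another cruciferin, read 3498%, 4038% and 2273%, and all 10 oil body genes were high. Both genes were picked out after their values were seen.

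Replicate 1 of gnc gnl was the highest library of all 12 for CRU2, SESA4, OLEO3 and OLEO4 and lay below every WT library for EM1, at 4.57%, against 5.60%, 5.10% and 7.87% in WT. EM1 in gnc gnl replicate 3 was lower still, at 2.81%, and not well above background. For LEA7 it read 209%, against 354%, 352% and 523% in WT, and for RAB18 493%, against 880%, 1064% and 1216%. EM1, LEA7 and RAB18 encode late embryogenesis proteins. The cause was not tested.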
